A study of Mus musculus with 7 samples.

Results

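The replication-dependent histone genes are the clustered genes for the linker histone H1 and the core histones H2A, H2B, H3 and H4. They were taken as every gene whose symbol in the counts is *H1f1* to *H1f5*, or H2ac, H2bc, H3c or H4c followed by a number. This gave 66 of the 33696 genes counted in 1 single-nucleus RNA-seq library of cultured BB-p53n OPCs. OPCs are oligodendrocyte progenitor cells. The study injected these cells into the brain to follow the formation of gliomas, and its 3 early and 3 late tumor samples were not analysed here. The cells were primary OPCs of Trp53fl/fl C57BL/6 mouse pups of either sex, made Trp53 null and PDGFB overexpressing at once with a retrovirus that carries PDGFB and CRE. There was no untransduced control and 1 library, so nuclei are not replicates of a condition and no p-value is given. Of 10047 deposited barcodes, the 8917 with 2000 to 8000 detected genes were kept, with a median of 13771 unique molecular identifiers (UMIs, counted molecules) and 4718 genes per nucleus. Intervals are 95% exact intervals on counts and cover counting error only.

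During DNA replication a cell must make new histones for the copied chromatin, and the clustered histone genes supply most of them. Their transcripts have no intron and normally end in a conserved stem-loop, bound by the stem-loop binding protein *Slbp*, in place of a poly(A) tail. Transcription is driven at the clusters by the coactivator *Npat*, and the messages are degraded when replication ends. The library was primed with oligo(dT), which binds stretches of A. What share of the histone transcripts of a nucleus it captured was not measured, so all levels below are levels of captured molecules.

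The kept nuclei carried the OPC label in their transcripts. The 6 OPC markers summed to 3272 CPM (UMIs per 1000000 UMIs of the nuclei), with *Lhfpl3* at 1953, the lineage transcription factors *Olig1* at 618 and *Olig2* at 293, and the PDGF receptor *Pdgfra* at 256 CPM. The 5 neuron, 5 astrocyte, 5 microglia, 5 endothelial and 5 fibroblast or pericyte markers summed to 17.5, 15.3, 7.36, 10.9 and 0.567 CPM. Every one of these markers but *Cldn5* had a UMI, and the levels within a list were uneven. The highest were *Slc1a2* with 1939 UMIs, *Snap25* with 1163, *Pecam1* with 770 and *P2ry12* with 741, while *Aif1* had 1 UMI and *Aqp4* had 4.

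In mm39, 53 of the 66 genes lie on chromosome 13 in 2 groups, 23 in chr13:21899933-22227846 and 30 in chr13:23715220-24118834. A further 10 lie in chr3:96127181-96177448, *H2ac25* and *H2bc27* in chr11:58838848-58847656, and *H4c16* in chr6:136778551-136781413. In the GENCODE annotation 57 of the 66 genes have 1 exon. A stem of 6 base pairs around 4 loop bases was found within 200 bases after the stop codon in 63 of the 66 genes, and in 0.385% of 21315 other coding genes searched in the same way. In 62 of the 63 the stem paired without a mismatch, and the exception was *H2ac22*. The sequences are shown for the genes on which the comparisons below turn, first 6 abundant genes with large differences between nuclei and then 5 with small or opposite ones, with the stem in capitals.
H1f5: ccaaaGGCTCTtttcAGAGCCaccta
H2ac24: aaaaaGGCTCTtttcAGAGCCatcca
H2ac22: acaaaGGCTCTtttcAGAGCTaacac
H3c3: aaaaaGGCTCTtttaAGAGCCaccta
H2ac8: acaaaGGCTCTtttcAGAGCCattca
H1f4: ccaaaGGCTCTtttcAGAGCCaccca
H1f2: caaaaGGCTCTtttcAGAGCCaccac
H4c9: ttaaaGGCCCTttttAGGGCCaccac
H2bc27: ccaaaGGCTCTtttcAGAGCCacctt
H2ac25: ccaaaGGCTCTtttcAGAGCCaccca
H2bc4: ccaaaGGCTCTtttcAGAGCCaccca

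The 63 stretches of 26 bases took 42 different sequences, and the most frequent one was shared by 7 genes, among them *H1f4*, *H2bc4* and *H2ac25*, which behaved differently in the nuclei. The genes differed more in where their annotation ends. The annotated transcript of *H1f5* at chr13:21964053-21964795 stopped 46 bases before the end of its stem-loop at chr13:21964007-21964022, and that of *H2ac22* at chr13:21970996-21971388 stopped 48 bases before it. *H2ac24* was annotated to 3 bases past the stem-loop, *H3c3* to 74, *H2ac8* to 151, *H2bc27* to 171, *H4c9* to 330, *H1f2* to 840, *H1f4* to 1153 and *H2ac25* to 1643 bases past it. For *H2bc4*, with 5 annotated transcripts, the outermost annotated end lay 9518 bases past it at chr13:23867631-23878163. These distances are in the genome, to the outermost end of any annotated transcript of a gene, with introns counted. The exons of *H2bc4* cover 3.09 kb in all, so none of its transcripts is that long. In all, 29 genes were annotated over 50 bases past the stem-loop and 34 to 50 bases past it or less.

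The promoters were compared in the RefSeq windows of GRCm38.p6, from 250 bases before to 50 after the start, which held 58 windows of 57 of the 66 genes. They are shown for *H1f5* and for *H2ac22* and *H2ac8*, whose levels rose together with most of the others, and for *H1f2*, which moved less. Capitals mark matches to the TATA box, searched as TATAAA on both strands, as were the others. The CCAAT box was searched under its own letters. The octamer, bound by POU factors, was searched as ATTTGCAT. The H1 box of linker histone promoters was searched as AAACACA. The E2F-type motif was searched as TTTNGCGC. In the *H2ac8* window the TATA match is on the opposite strand. *H2bc8* starts 175 bases from *H2ac8* in that direction, and which of the genes the match serves was not tested. The windows are chr13:21780576-21780875 on the minus strand, chr13:21787199-21787498 on the minus strand, chr13:23571171-23571470 on the minus strand and chr13:23738557-23738856 on the plus strand.
H1f5: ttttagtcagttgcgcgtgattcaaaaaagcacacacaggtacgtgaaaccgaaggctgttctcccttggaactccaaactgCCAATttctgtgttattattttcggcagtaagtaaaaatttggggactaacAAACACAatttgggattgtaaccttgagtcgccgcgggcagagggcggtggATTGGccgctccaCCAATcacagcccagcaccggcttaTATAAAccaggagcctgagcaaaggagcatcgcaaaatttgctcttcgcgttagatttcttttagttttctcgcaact
H2ac22: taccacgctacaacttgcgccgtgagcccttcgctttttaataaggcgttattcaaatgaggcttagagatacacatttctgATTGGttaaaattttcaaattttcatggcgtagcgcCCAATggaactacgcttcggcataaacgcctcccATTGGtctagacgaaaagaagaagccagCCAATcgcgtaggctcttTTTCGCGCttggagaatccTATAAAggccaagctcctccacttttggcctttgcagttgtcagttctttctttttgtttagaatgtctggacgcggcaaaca
H2ac8: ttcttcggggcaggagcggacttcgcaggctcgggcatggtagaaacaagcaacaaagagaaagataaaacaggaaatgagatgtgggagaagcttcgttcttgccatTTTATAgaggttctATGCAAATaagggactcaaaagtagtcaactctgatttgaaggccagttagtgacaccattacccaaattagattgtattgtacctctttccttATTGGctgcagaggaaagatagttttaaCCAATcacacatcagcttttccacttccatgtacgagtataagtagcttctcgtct
H1f2: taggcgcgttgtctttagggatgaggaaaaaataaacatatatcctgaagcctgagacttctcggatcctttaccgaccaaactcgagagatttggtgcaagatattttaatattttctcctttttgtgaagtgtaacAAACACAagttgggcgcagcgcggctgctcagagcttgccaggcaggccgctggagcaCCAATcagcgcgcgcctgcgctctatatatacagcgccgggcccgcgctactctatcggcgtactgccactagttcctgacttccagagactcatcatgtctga

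CCAAT was present in 86.2% of the histone windows and in 37.4% of all 32851 windows, and TATAAA in 58.6% against 13.6%. The octamer and the E2F-type motif were each present in 22.4% of the histone windows, against 1.74% and 1.38% of all windows. Both were found only in H2A windows (6 and 7 of 17) and H2B windows (7 and 6 of 15) among the histone windows. Many H2A and H2B genes lie head to head, most with starts 175 to 305 bases apart, so the windows of such partners overlap. The same match can then be counted for both genes, and these windows are not independent. The H1 box was in 13.8% of the histone windows and 7.18% of all windows, in 4 of the 5 H1 windows and in 2 H2A and 2 H2B windows. No motif match overlapped another in the histone windows. A match is a run of letters and not a shown binding site.

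The 66 genes together had 234413 of 141138093 UMIs, a summed level of 1661 CPM (1654 to 1668). A UMI was found for 61 of them, and 59 had at least 100 UMIs. Few genes carried most of the molecules: *H1f5* alone had 17.5%, the 5 genes with the most UMIs 53.2% and the 12 with the most 78.9% of the histone UMIs. By family, H1 had 41.6% of them (691 CPM from 5 genes), H2A 23.0% (381 CPM), H2B 17.9% (297 CPM), H3 7.75% (129 CPM) and H4 9.83% (163 CPM). Since the genes differ in length, levels of different genes are also given as CPM per kilobase of annotated exon. UMIs primed at the 3′ end need not scale with length, so an order per kilobase rests on the annotation as well as on the counts. On that scale the 59 genes ran from 0.797 to 391 with a median of 8.06.

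**Figure D1:**
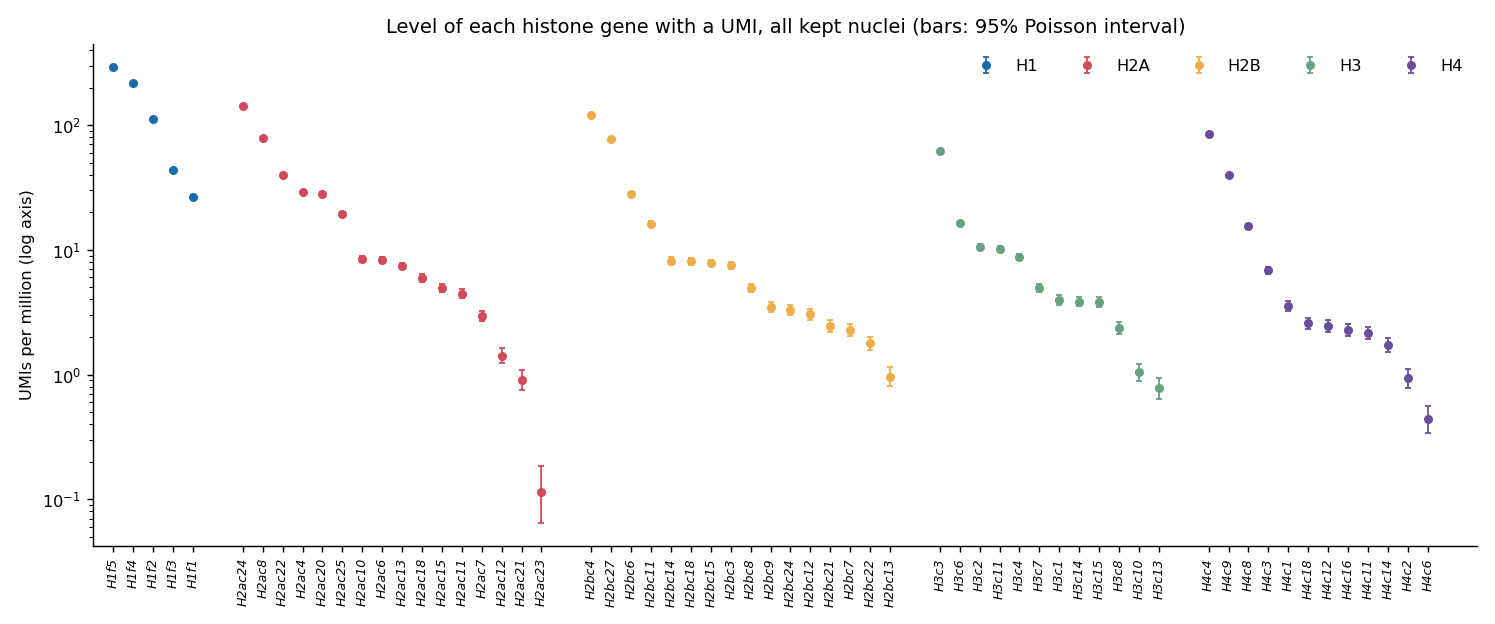
Level of each of the 61 histone genes with a UMI in the 8917 kept nuclei, in CPM on a log axis, grouped by family, with 95% Poisson intervals. In each family a few genes stand far above the rest, from 291 CPM for *H1f5* down to 0.113 CPM for *H2ac23*.

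The linker histones, which bind DNA between nucleosomes, were led by *H1f5* with 41022 UMIs or 291 CPM (288 to 294). *H1f4* had 30650 UMIs (217 CPM), *H1f2* 15933 (113 CPM), *H1f3* 6129 (43.4 CPM) and *H1f1* 3770 (26.7 CPM). Per kilobase, *H1f5* at 391 stood above *H1f4* at 112 and *H1f2* at 72.4, and *H1f3*, annotated over 7.42 kb, was lowest at 5.85 CPM per kb. All 5 H1 genes were thus present, at levels in CPM whose counting intervals do not overlap.

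Among the H2A genes, which encode a core histone of the nucleosome's outer surface, *H2ac24* had 20032 UMIs or 142 CPM, *H2ac8* 11039 (78.2 CPM) and *H2ac22* 5627 (39.9 CPM). The 2 last were given as markers of these genes, and per kilobase they were close, at 111 and 101 CPM per kb, against 294 for *H2ac24*. The *H2ac24* count is uncertain, since none of its 393 stretches of 90 bases is unique in the genome and 363 of them also occur in *H2ac23*, which had 16 UMIs. Only 16.1% of the 90-base stretches of *H2ac22* are unique, with 237 shared with *H2ac12*, against 68.1% for *H2ac8*. Below them lay *H2ac4* at 29.1, *H2ac20* at 28.1 and *H2ac25* at 19.5 CPM. The rest of the H2A genes with at least 100 UMIs formed a tail: *H2ac10* at 8.40, *H2ac6* at 8.27, *H2ac13* at 7.43, *H2ac18* at 5.95, *H2ac15* at 4.95, *H2ac11* at 4.46, *H2ac7* at 2.95, *H2ac12* at 1.42 and *H2ac21* at 0.907 CPM.

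The H2B family, the partner of H2A in the nucleosome, was led by *H2bc4* with 17088 UMIs (121 CPM) and *H2bc27* with 10966 (77.7 CPM). Per kilobase their order was the reverse, 39.2 for *H2bc4*, annotated over 3.09 kb, and 105 CPM per kb for *H2bc27*, annotated over 0.743 kb. *H2bc6* at 27.8 CPM shares annotated exon with *H1f4* on the same strand, so UMIs of one could be counted for neither or the other. The next was *H2bc11* at 16.2 CPM. The tail held *H2bc14* at 8.21, *H2bc18* at 8.06, *H2bc15* at 7.85, *H2bc3* at 7.51, *H2bc8* at 4.98, *H2bc9* at 3.49, *H2bc24* at 3.27, *H2bc12* at 3.03, *H2bc21* at 2.47, *H2bc7* at 2.26, *H2bc22* at 1.78 and *H2bc13* at 0.964 CPM.

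Of the H3 and H4 genes, which form the core tetramer, *H3c3* with 8766 UMIs (62.1 CPM) and *H4c4* with 11953 (84.7 CPM) led their families, at 98.6 and 74.4 CPM per kb. *H4c9* had 40.0, *H4c8* 15.5 and *H4c3* 6.83 CPM. Among the H3 genes *H3c6* was at 16.4, *H3c2* at 10.5, *H3c11* at 10.2 and *H3c4* at 8.80 CPM. The lowest H3 genes were *H3c7* at 4.97, *H3c1* at 3.96, *H3c14* at 3.83, *H3c15* at 3.81, *H3c8* at 2.35, *H3c10* at 1.04 and *H3c13* at 0.779 CPM, and the lowest H4 genes *H4c1* at 3.56, *H4c18* at 2.58, *H4c12* at 2.47, *H4c16* at 2.28, *H4c11* at 2.15, *H4c14* at 1.73 and *H4c2* at 0.935 CPM.

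Of the 7 genes with under 100 UMIs, *H4c6* had 62 and *H2ac23* had 16, and 5 had none. A count of 0 allows up to 0.0213 CPM (3 counts). *H2ac1* and *H2bc1*, known as histones of the testis, were among the 5. The other 3, *H2ac19*, *H4c17* and *H2bc23*, share most or all of their 90-base stretches with a copy that was counted, so their 0 cannot be told apart from molecules that fitted both copies. Across the 66 genes, 5 had no unique 90-base stretch and 26 had under 50% unique.

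H2A and H2B genes often lie head to head, most with a shared stretch between their starts, and 12 such pairs were found. In the pair of *H2ac6* and *H2bc4* the annotated genes overlap by 301 bases instead. *H2ac24* had 20032 UMIs and its partner *H2bc24* 461, *H2ac22* had 5627 and *H2bc22* 251, and *H2ac8* had 11039 and *H2bc8* 703. Of the 10 pairs with at least 100 UMIs for each gene, 4 leaned to the H2B gene. These were *H2ac6* and *H2bc4* with 1167 and 17088 UMIs, *H2ac11* and *H2bc11* with 630 and 2290, *H2ac12* and *H2bc12* with 200 and 428, and *H2ac15* and *H2bc15* with 698 and 1108. The partners were therefore not captured in equal numbers, and their UMIs across nuclei were near uncorrelated (r of 0.003 to 0.074 in the 10 pairs), which in counts this sparse says little.

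To compare nuclei at equal depth, each was thinned at random to 5000 UMIs, which 8760 nuclei allowed and 157 were too shallow for. A histone UMI was then found in 97.1% of nuclei (96.7 to 97.4%), and in 99.3% of the 8917 nuclei without thinning. The library holds no cell type that should be without histone transcripts, so no background share from free RNA could be set beside it. For single genes the thinned share was 51.5% for *H1f5*, 38.6% for *H2ac24*, 39.6% for *H2bc4*, 26.2% for *H2ac8* and 15.1% for *H2ac22*, against 68.2%, 60.0%, 67.4%, 47.5% and 34.0% without thinning. A thinned nucleus had a median of 6 histone UMIs from a median of 4 of the genes, and the middle 50% of nuclei had between 3 and 11. The mean was 7.98 and the variance 48.5, so nuclei differed 6.07 times more in variance than evenly spread counts would, with 256 nuclei at 0 and a maximum of 48.

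The first question was whether histone levels differed with *Mcm6*, a subunit of the replicative helicase, and *Cdc20*, the activator of the anaphase-promoting complex. Thinned nuclei were classed by whether they had a UMI of one, the other, both or neither. The summed histone level was 1759 CPM (1746 to 1772) in the 2788 nuclei with *Mcm6* and no *Cdc20*, 1566 (1552 to 1581) in the 1665 with *Cdc20* and no *Mcm6*, 1670 (1659 to 1682) in the 3186 with neither and 1600 (1582 to 1617) in the 1121 with both. The ratio over nuclei with neither was 1.05 (1.04 to 1.06) with *Mcm6* and 0.938 (0.927 to 0.949) with *Cdc20*. These are small differences, and neither direction held under every setting. The *Mcm6* ratio turned to 0.975 when nuclei over 5% mitochondrial UMIs were left out, and with classes from unthinned UMIs the *Cdc20* ratio turned to 1.252 (1.23 to 1.28) and the *Mcm6* ratio was 1.35.

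No histone gene of the 59 with at least 100 UMIs was 1.5 times higher with *Mcm6*, where 0.686% of all 14438 genes tested were, and none was lower by as much, against 0.630%. Their median ratio was 1.01, and that of all genes 0.997. With *Cdc20* none was 1.5 times higher, against 0.921% of all genes, and *H3c10* alone was lower by as much, at 0.651 (0.378 to 1.09), against 4.49%. With classes from unthinned UMIs, 25 of the 59 were higher with *Mcm6* and 20 with *Cdc20*. Those classes are not at equal depth and no share over all genes is given for them, so these counts cannot be set against the shares above. *H1f5* moved with a narrow interval in both classes, 1.17 (1.15 to 1.20) with *Mcm6* and 0.752 (0.731 to 0.774) with *Cdc20*. The H1 sum went the same way, 1.08 and 0.849, while the H2B sum was 1.01 with *Mcm6* and 1.08 (1.06 to 1.11) with *Cdc20*. The median thinned UMIs of 39 S-phase genes, *Mcm6* included, was 21 with *Mcm6* and 14 with neither, and that of 54 G2/M genes, *Cdc20* included, was 61 with *Cdc20* and 39 with neither. Of the 39, only 2 were 1.5 times higher with *Mcm6*, itself among them, with a median ratio of 1.24. Of the 54, 23 were with *Cdc20*, itself among them, with a median of 1.46. The *Mcm6* class thus called few S-phase genes, so the lack of a call there says little about the histone genes.

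**Figure D2:**
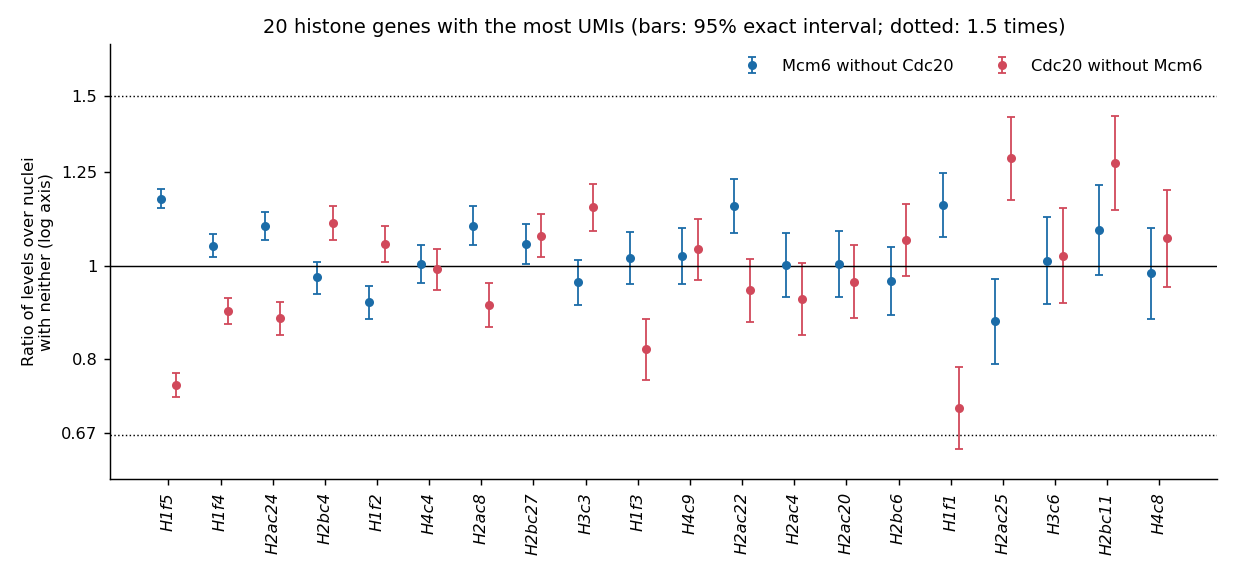
Ratio of the level of the 20 histone genes with the most UMIs in nuclei with *Mcm6* and no *Cdc20* (blue) and with *Cdc20* and no *Mcm6* (red) over nuclei with neither, on a log axis, with 95% exact intervals. All ratios lie between the dotted lines at 1.5 and 0.667, and *H1f5* is at 1.17 and 0.752.

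After these values were seen, the nuclei were also sorted by the summed thinned UMIs of the 39 S-phase genes, among them *Pola1*, *Atad2*, *Pcna* and *Usp1*, and of the 54 G2/M genes, among them *Hmgb2*, *Top2a*, *Cbx5* and *Mki67*. No histone gene of the 66 is in either list. With the nuclei cut at the quartiles of each list, those low in both (under 11 S and under 25 G2/M UMIs, 790 nuclei) are one corner. There the histone level was 734 CPM (717 to 752). It was 873 CPM (852 to 895) in the 568 nuclei high in S UMIs (22 or more) and low in G2/M UMIs. It was 1617 CPM (1591 to 1642) in the 516 nuclei low in S UMIs and high in G2/M UMIs (63 or more), and 3000 CPM (2948 to 3052) in the 240 nuclei high in both. The histone level thus rose along both lists together, 4.08 times (3.97 to 4.21) from corner to corner, and only 1.19 times (1.15 to 1.23) along the S list where the G2/M list was low.

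**Figure D3:**
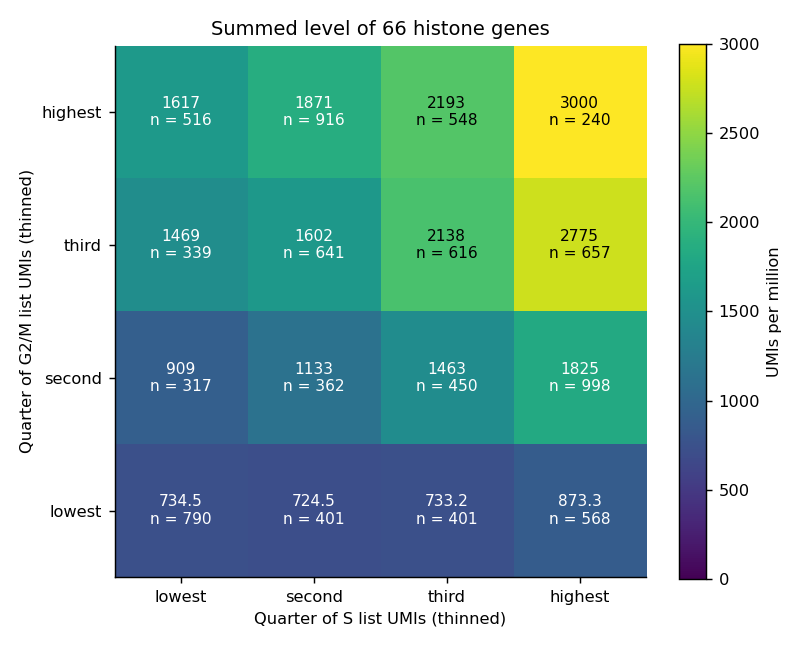
Summed level of the 66 histone genes in CPM, in nuclei sorted by the quartiles of the thinned UMIs of the S list (horizontal) and the G2/M list (vertical), with the number of nuclei. The levels run from 724.5 to 3000 CPM, the lowest row stays between 724.5 and 873.3, and the highest value is in the corner where both lists are highest.

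Depth and mitochondrial share moved with these groups. The median UMIs per nucleus were 10750 where both lists were low and 14622 where both were high, with a median of 6.29% and 5.63% mitochondrial UMIs, and the histone level of the kept nuclei between the quartiles of depth, shallowest first, was 1285, 1562, 1773 and 1744 CPM. Within nuclei at or under the median depth the ratio from corner to corner was 4.75 (4.56 to 4.96), and over it 3.91 (3.75 to 4.09). Within nuclei at or under and over the median mitochondrial share it was 4.28 and 3.64. Over the 4 corners the summed markers of other cell types ran from 13.3 to 21.7 CPM for neurons, 14.7 to 18.6 for astrocytes, 5.31 to 10.98 for microglia, 6.19 to 10.5 for endothelial cells and 0.141 to 1.59 for fibroblasts or pericytes, and their part in the histone levels was not tested. No doublet caller was run, and without the 8% deepest nuclei the ratio was 4.66.

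Most of the histone genes shared the difference between the corners. Where both lists were high, 49 of the 59 genes with at least 100 UMIs were at least 1.5 times higher than where both were low, against 10.5% of all genes tested, and 3 were lower by as much, against 16.0%. Their median ratio was 7.43, with 1 gene set to its bound from 3 counts, and that of all genes 0.966. With the G2/M list high and the S list low, 47 were higher, against 7.95%, and 2 lower, against 14.9%. With the S list high and the G2/M list low, 30 were higher, against 8.93%, and 8 lower, against 10.1%.

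The steepest of the abundant genes was *H1f5*, with 25.7 CPM where both lists were low, 144 with the S list high, 202 with the G2/M list high and 668 with both high, a ratio of 26.04 (22.8 to 29.8) between the ends. *H3c3* went from 6.13 to 116 CPM (18.9 times, 14.4 to 25.3) and *H2ac22* from 4.33 to 79.1 CPM (18.3 times, 13.2 to 25.9). *H2ac24* rose 14.0 times, *H2ac8* 10.9 times (9.05 to 13.2), *H4c4* 10.1 times and *H1f4* 7.82 times, all with intervals far from 1. In each of these 7 genes the level with only 1 list high lay between the 2 ends.

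A second set of abundant genes did not share it. *H2bc4* fell from 186 CPM where both lists were low to 114, 131 and 93.7 CPM in the other corners, 0.504 times (0.451 to 0.563) at the end. *H2bc27* went from 119 to 74.6 CPM (0.628, 0.553 to 0.712) and *H2ac25*, its neighbour on chromosome 11, from 28.2 to 16.9 CPM (0.601, 0.456 to 0.782). *H2ac25* lies within the span of *Trim17* (505 UMIs, ratio 1.75) on the same strand, so UMIs of one could be counted for neither or the other. *H1f2* at 108 and 149 CPM (1.39, 1.253 to 1.53) and *H4c9* at 43.5 and 52.7 CPM (1.21, 1.02 to 1.43) rose little. *H1f2* stood below its low-corner level where only the S list was high, at 64.5 CPM. *H3c14*, *H3c15*, *H4c11*, *H4c14* and *H2bc21* were also between the 1.5-fold limits, each with an interval that spans 1.

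These few genes set the level of the H2B family. From corner to corner the H1 sum went from 203 to 1401 CPM (6.91 times), H2A from 87.0 to 738 (8.48 times), H3 from 30.3 to 238 (7.85 times) and H4 from 76.5 to 283 CPM (3.69 times), but H2B from 338 to 339 CPM, a ratio of 1.00 (0.942 to 1.07). Of its 16 genes with at least 100 UMIs, 13 rose past 1.5 times, with *H2bc6* at 2.64 and *H2bc11* at 9.55. Without *H2bc4* and *H2bc27*, a choice made after their values were seen, the H2B sum went from 33.5 to 171 CPM, or 5.10 times (4.46 to 5.84).

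The genes split by where their annotation ends in the genome relative to the stem-loop. The ends are the outermost of GENCODE M39 over all transcripts of a gene, with introns counted. The release used to count the UMIs is not given, so ends there, and with them the sets, may differ. The 34 genes annotated to 50 bases past it or less summed to 85.7 CPM where both lists were low and 1383 CPM where both were high, a ratio of 16.1 (15 to 17.4). The 29 annotated further summed to 645 and 1601 CPM, a ratio of 2.48 (2.40 to 2.57). Of the first, all 28 with at least 100 UMIs were past 1.5 times, from 2.55 up, with a median of 9.23. A few genes carry these sums. Without *H1f5* the first ratio was 11.9 (10.9 to 13.05), and without *H2bc4* and *H2bc27* the second was 4.21 (4.03 to 4.39). Of the 28 of the second kind with at least 100 UMIs, 19 were higher, 3 lower and 6 between, with a median of 3.15, and *H3c3* (18.9) and *H3c2* (23.8, from 9 UMIs where both lists were low) were among the steepest. For the 17 genes annotated to end before the end of the stem-loop the summed ratio was 21.1 (19.1 to 23.4).

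The difference between the sets was present at low and high depth and mitochondrial share. At or under the median depth the ratios were 21.99 and 2.67, and over it 13.2 and 2.50. At or under the median mitochondrial share they were 17.8 and 2.56, and over it 13.6 and 2.26. *H2ac24*, with no unique stretch, and *H2ac22* are in the first set. Whether transcripts of the genes annotated further end in poly(A), and whether that has a part in the split, was not tested.

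**Figure D4:**
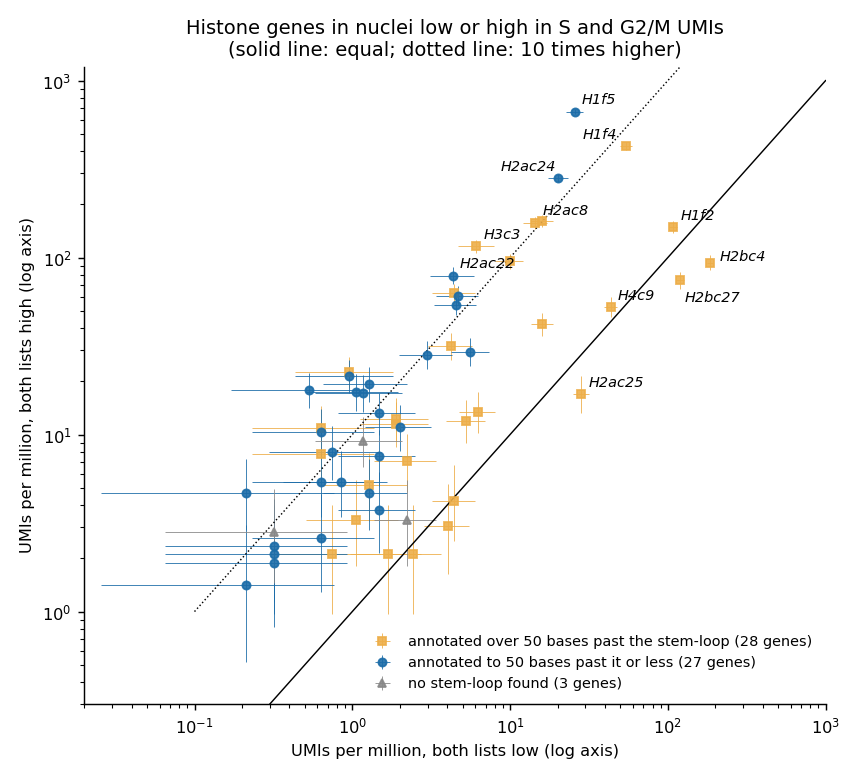
Level of 58 histone genes with at least 100 UMIs where both lists are low (horizontal) and where both are high (vertical), in CPM on log axes with 95% Poisson intervals, coloured by the annotated end. Genes annotated to 50 bases past the stem-loop or less all lie above the line of equal levels, and *H2bc4*, *H2bc27* and *H2ac25* lie below it. *H2ac12*, with 0 UMIs where both lists are low, is left out.

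Genes next to the clusters had no shared difference of this kind. Of 70 other annotated genes within 100 kb of a histone gene, 24 had at least 100 UMIs, and between the corners where both lists were low and high 3 were higher (10.5% of all genes tested were), 3 lower (16.0%), and their median ratio was 0.960. The 5 with the most UMIs were *Wbp11* (1.67), *Rnf187* (0.978), the replacement histone *H2aj* (1.11), *Otud7b* (0.938) and *Sf3b4* (1.32). Besides *Wbp11*, the higher ones were *Trim17* (1.75) and *Gm20628* (20.05, 166 UMIs in all), named after their values were seen. Both overlap histone genes in position. *H2bc26* (40 UMIs) is an H2B gene by its GENCODE name, but its symbol in the counts did not match, so it is among the 70. *H1f6* (10 UMIs) and *H3f4* (0) are histone genes as well.

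Levels of single histone genes were linked within nuclei. The 2977 thinned nuclei with a UMI of *H2ac22* or *H2ac8* had the other 64 genes at 2334 CPM, and the 5783 without at 1099, a ratio of 2.12 (2.11 to 2.14), with a median of 15270 and 13324 UMIs per nucleus. These marker genes were named because they led a cluster of the same nuclei, so the ratio is a description. It was 1.13 (1.04 to 1.22) where both lists were low, 1.71 where the S list was high, 2.23 where the G2/M list was high and 1.87 where both were. Each of the 59 genes was also taken in turn against the sum of all other histone genes, with a median ratio of 1.67. Of the intervals, 58 lay above 1 and 1, that of *H2bc4* at 0.947 (0.939 to 0.955), lay below. The ratio was not taken for genes outside the histone set, so no share over all genes stands beside these counts. Whether the link is particular to the histone genes was not tested.

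Across the 8760 thinned nuclei, which share 1 library and 1 depth, the correlation between 2 of the 20 genes with the most UMIs had a median r of 0.085 over 190 pairs. The closest pairs were *H1f5* with *H1f4* (r = 0.504), *H1f5* with *H2ac24* (0.455), *H1f5* with *H2ac8* (0.398) and *H1f4* with *H2ac24* (0.383). *H2bc4* was the exception, with r of -0.105 with *H1f5* and its closest match in *H1f2* at 0.198. Most other values lay too near 0 in counts this sparse to read. Within the nuclei low in both lists the median r was 0.0122, and within those high in both 0.0869.

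**Figure D5:**
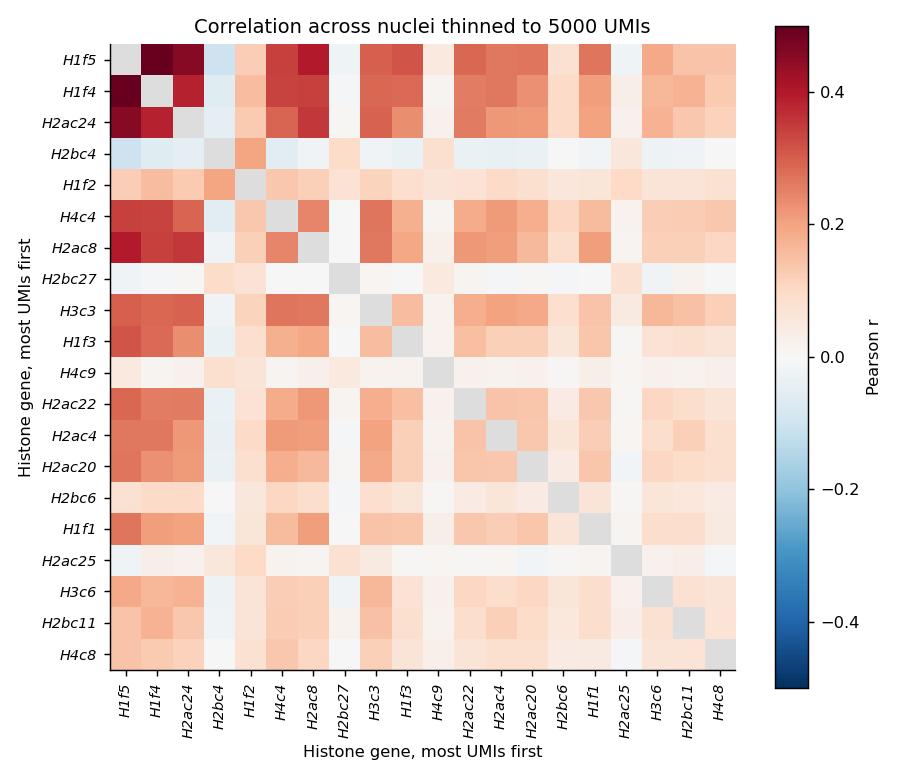
Pearson correlation of thinned UMIs between the 20 histone genes with the most UMIs, across 8760 nuclei (red positive, blue negative). *H1f5*, *H1f4*, *H2ac24*, *H4c4*, *H2ac8* and *H3c3* form a block of positive values up to 0.504, and the rows of *H2bc4*, *H2bc27*, *H4c9* and *H2ac25* are pale.

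Of all other genes with at least 1000 UMIs, the one most like the histone sum across nuclei was *Top2a*, the DNA topoisomerase of dividing cells (r = 0.435). It was followed by the proliferation gene *Mki67* (0.409), the chromatin protein *Hmgb2* (0.362), the PCNA-associated factor *Pclaf* (0.359), the replacement histone *H3f3b* (0.354), the tubulin *Tubb5* (0.318), the mitotic kinesins *Kif11* (0.315) and *Kif15* (0.291), the tubulin *Tuba1b* (0.267) and *Gm12610* (0.266). *Top2a*, *Mki67*, *Hmgb2* and *Kif11* are in the G2/M list.

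Genes that act in the transcription and processing of histone messages were followed from a list. Of 16 such genes, 15 had at least 100 UMIs, and where both lists were high 4 were at least 1.5 times higher, against 10.5% of all genes tested, and 1 was lower, against 16.0%, with a median of 1.28. *Slbp* went from 41.8 to 102 CPM (2.44 times, 2.13 to 2.80) and was at 110 CPM where only the S list was high, and *Casp8ap2*, known as FLASH of the histone processing complex, went from 61.7 to 103 CPM (1.67 times) and was at 146 there. For *Casp8ap2* the ratio with the S list alone, 2.37 (2.14 to 2.62), lay above that with both lists, 1.67 (1.48 to 1.90), while for *Slbp* the intervals of 2.62 (2.32 to 2.97) and 2.44 overlap. *Npat* was at 46.5 and 58.1 CPM (1.251 times, 1.07 to 1.46), with 77.6 where only the S list was high. The cap-binding subunit *Ncbp1* was at 1.32 and the cleavage factor *Cstf2* at 1.23 times.

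The 11 replacement histones, most of them made outside replication from polyadenylated transcripts, summed to 5381 CPM, against 1661 for the 66 genes. Where both lists were high 8 were at least 1.5 times higher, against 10.5% of all genes tested, and none lower, against 16.0%, with a median of 1.57. *H2az1* (1250 and 1933 CPM) was 1.55 times higher, *H2az2* 1.86 and *H3f3b* 1.503 times, and *H3f3a* at 1.05 (1.01 to 1.09) was level. The largest ratio was that of *H2ax*, named after its value was seen, at 4.54 (4.17 to 4.95), a gene known to give a stem-loop transcript as well as a polyadenylated one. Among the 8 was *Cenpa*, the centromere histone (3.47), which is also in the G2/M list that sorted the nuclei. Of 12 histone chaperones 5 were higher, against 10.5%, and none lower, against 16.0%. The 4 with the most UMIs were *Nasp* at 2.06, *Rbbp4* at 1.42, *Rbbp7* at 1.39 and *Atrx* at 1.01 times. The other 4 that were higher, named after their values were seen, were *Asf1b*, a carrier of H3 and H4, at 10.6 (7.49 to 15.4), the CAF-1 subunits *Chaf1b* at 3.52 and *Chaf1a* at 3.34, and the acetyltransferase *Hat1* at 2.68 times.

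Nuclei that had *Egfr* and no *Pdgfra* UMI after thinning, 1366 in number, had the 66 genes at 1338 CPM (1321 to 1355), against 1722 (1713 to 1731) in the 4599 with *Pdgfra* and no *Egfr*. The H2B sum was 184 and 329 CPM there and the H1 sum 629 and 693 CPM, at a median depth of 11468 and 15359 UMIs.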

How the data were processed

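Nuclei of 1 culture of BB-p53n OPCs were profiled with 10x 3′ chemistry (poly(dT) priming). Per the labels, the authors' notes name Cell Ranger 8.0.1 and mm39, and the deposited matrix holds raw UMI counts per gene and barcode. The study's methods give the default pipeline with an mm39 reference supplied by 10x. They do not name the annotation release or spell out the treatment of intronic and ambiguous reads. Reads that fit several copies may be lost, which lowers near-identical histone genes. Barcodes with 2000 to 8000 detected genes were kept, the limits given in the study's methods. They left several times more nuclei than the study lists for this culture after its filtering, for a reason not given in the sources used here, so the nuclei are not the study's final set. No duplicate barcode was found and no doublet caller was run.

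Levels are UMIs per 1000000 UMIs (CPM), with exact Poisson intervals. Ratios of levels have exact conditional binomial intervals, and shares of nuclei Clopper-Pearson intervals. Nuclei were classed after thinning to 5000 UMIs (fixed seed), and levels were taken from all UMIs of a class. A gene counted as higher or lower at 1.5 times, among genes with at least 100 UMIs, and the 93 S and G2/M list genes were left out of the background. A gene at 0 in the base group was set to 3 counts. Annotation was GENCODE M39 on GRCm39, matched by gene ID for 33185 of 33696 genes and all 66 histone genes. Intervals and thinning were tested on simulated data. Python 3.11.15, numpy 2.4.6, scipy 1.17.1 and pandas 2.3.3 were used.

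The histone genes and all lists were chosen with earlier results of these data known. Histone genes with at least 100 UMIs were named, as were up to 4 genes of each list with the most UMIs plus Slbp and Npat, the 10 genes most like the histone sum, and 5 neighbours within 100 kb. Alternatives were other cutoffs for nuclei and genes, another depth or none, another fold, and classes from the S and G2/M lists.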

Additional observations from a re-analysis of the deposited data

Results flagged for a closer look

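Barcodes outside the limits of 2000 to 8000 detected genes entered no comparison but held histone UMIs. The 918 barcodes with fewer than 2000 genes had a summed histone level of 799.5 CPM (758.2 to 842.4), at a median of 1717 UMIs and 10.96% mitochondrial UMIs, and 58.06% of them had a histone UMI without thinning. The 212 barcodes with more than 8000 genes had 1593 CPM (1570 to 1617), at a median of 53105 UMIs.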

How the results depend on the processing

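No paired analysis was possible because there is 1 library. Of 128 values recomputed under the alternatives, 73 stayed within the reported interval or within 1.5 times of the reported count, 52 moved and 3 crossed 1, of which 1 rests on 3 nuclei. The comparisons by low and high S and G2/M lists, with their alternatives, and the one on unique stretches were chosen after seeing the data. With at most 5% mitochondrial UMIs (1910 thinned nuclei, 23 of them high in both lists) the histone level was 1844 CPM, the share with a UMI 97.49%, the Mcm6 ratio 0.9752, the Cdc20 ratio 0.8061 with 2 genes higher, the ratios with both lists, the S list and the G2/M list high 4.233, 1.309 and 2.087, that of the genes annotated to 50 bases past the stem-loop or less 17.77, and that with H2ac22 or H2ac8 2.381. Without thinning the same values were 99.3% for the share, 1.35 for Mcm6 with 25 genes higher, 1.252 for Cdc20 with 20 higher, 5.101 for both lists and 1.083 for the S list, 21.97 and 2.956 for the genes annotated to 50 bases or less and further, and 2.639 with H2ac22 or H2ac8. So the calls by single Mcm6 and Cdc20 UMIs depend on equal depth. The share over all genes is given only for the reported setting, so counts of genes under the alternatives have no background. Thinning to 3000 UMIs gave 90.96%, 1.031 for Mcm6, 0.9591 for Cdc20 with 1 gene higher, 1.287 for the S list, 2.316 for the G2/M list and 1.971 with H2ac22 or H2ac8. Classes from at least 3 UMIs of the lists gave 0.8734 (0.4884 to 1.594, from 3 nuclei) with 1 gene higher in place of Mcm6, and 0.7022 (0.4573 to 1.139) in place of Cdc20, both with intervals that span 1, so they show no direction. With 3000 to 7000 detected genes the level was 1677 CPM, both lists 4.537, the S list 1.121, the annotation sets 18.55 and 2.693, and H2ac22 or H2ac8 2.219. Without the 8% deepest nuclei the level was 1678 CPM, Cdc20 0.9554, both lists 4.664, the S list 1.11, the G2/M list 2.268, the annotation sets 19.29 and 2.75, and H2ac22 or H2ac8 2.225. All barcodes gave 1646 CPM, 3.948 for both lists and 2.059 with H2ac22 or H2ac8, and a denominator without mitochondrial UMIs 1773 CPM. Tertiles gave 3.818, 1.317 for the S list and 12.41 for the genes annotated to 50 bases or less. Without genes that lack a unique stretch the level was 1516 CPM and both lists 3.804. A limit of 20 UMIs gave 1 gene higher with Cdc20, and 2 times in place of 1.5 gave 18 with the S list high. The causes were not tested. Genes with few UMIs where both lists are low, such as H2ac7 with 2, have wide intervals, and depth limits what single nuclei show.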
